A study of Mus musculus with 6 samples.

Results

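The genes described here encode the laminins, the integrins and the other core proteins of the basement membrane. They were chosen by name, with earlier results of these data known. They comprise 10 laminin chains, 20 integrin subunits, 6 collagen IV chains, 2 nidogens, perlecan (Hspg2), agrin (Agrn) and collagen XVIII (Col18a1). All 41 were found among the 55416 Ensembl genes of the table. They were measured by RNA-Seq in small intestinal organoids grown from duodenal and jejunal crypts of 3 C57BL/6 mice labelled WT. Organoids of each mouse were treated for 5 days with LDL (50 μg/ml) or with PBS as control, which gave 3 LDL-treated and 3 PBS-treated libraries, and the same animal identifier joins both libraries of a mouse. The identifier of mouse 3 has another prefix than those of mice 1 and 2, although the genotype label reads WT throughout, so values without mouse 3 are given below. Neither the age nor the sex of the mice is given in the labels. The crypts were embedded in Matrigel, itself a basement membrane extract, so the matrix around the cells was supplied in both treatments.

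The basement membrane is a thin sheet of matrix on which every epithelium rests. Laminins, trimers of an alpha, a beta and a gamma chain, polymerize at the cell surface, collagen IV forms a second network, and nidogens and perlecan link them. Integrins, heterodimers of an alpha and a beta subunit, bind these proteins and connect them to the cytoskeleton. In the gut, epithelium and mesenchyme both contribute to this sheet, and collagen IV and nidogens are known mainly as products of the mesenchyme.

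Reads on genes were between 22061545 and 31073360 per library. Values are normalized counts, that is, reads divided by a size factor for each library, so that 1 read equals 0.814 to 1.24 normalized counts. Between 29285 and 30018 genes had reads with PBS, and 35781, 29870 and 32751 had reads with LDL in mice 1, 2 and 3. By limma, treatments were compared in the 18459 genes whose normalized counts averaged 10 or more, with the mouse as a block, and adjusted p-values are over all of these genes. Calls required both an adjusted p-value below 0.05 and more than a 1.5-fold difference.

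The largest rises were those of Col4a1, Col4a2, Lama3 and Nid1, which were 10.1-fold to 17.3-fold higher with LDL. Lama5, Col18a1 and 10 other genes rose less, and none of the 41 was called lower. Of the 31 genes that passed the filter, 16 were called higher with LDL, where 5.68% of all genes tested were. All 31 had a mean of at least 10 in each treatment. In every mouse the 16 exceeded their own PBS level, and for 12 of them the lowest LDL-treated value lay above the highest PBS-treated value. Of the 31 tested genes 15 had values separated in that way, against 11.9% of all genes tested, and 0 were separated in the opposite direction, against 12.3%. With LDL, 21 were higher in all mice (24.2% of all genes) and 2 lower in all mice (26.8%). At any size of change, 17 passed the adjusted p-value in the higher direction, against 8.27%. The median log2 fold change of the tested genes was 0.63, and that of all genes tested was -0.016. The fit without the mouse as a block called only Lamb3, where 0.878% of all genes were called higher and 0.395% lower, and the adjusted p-values of the 16 genes from limma were then between 0.0252 and 0.260. In that fit 19 of the 31 had an unadjusted p-value under 0.05, against 19.7% of all genes tested. Without mouse 3 only Col4a1, Col4a2, Lama5 and Lamb3 were called, and without mouse 1 the count was 11.

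**Figure D1:**
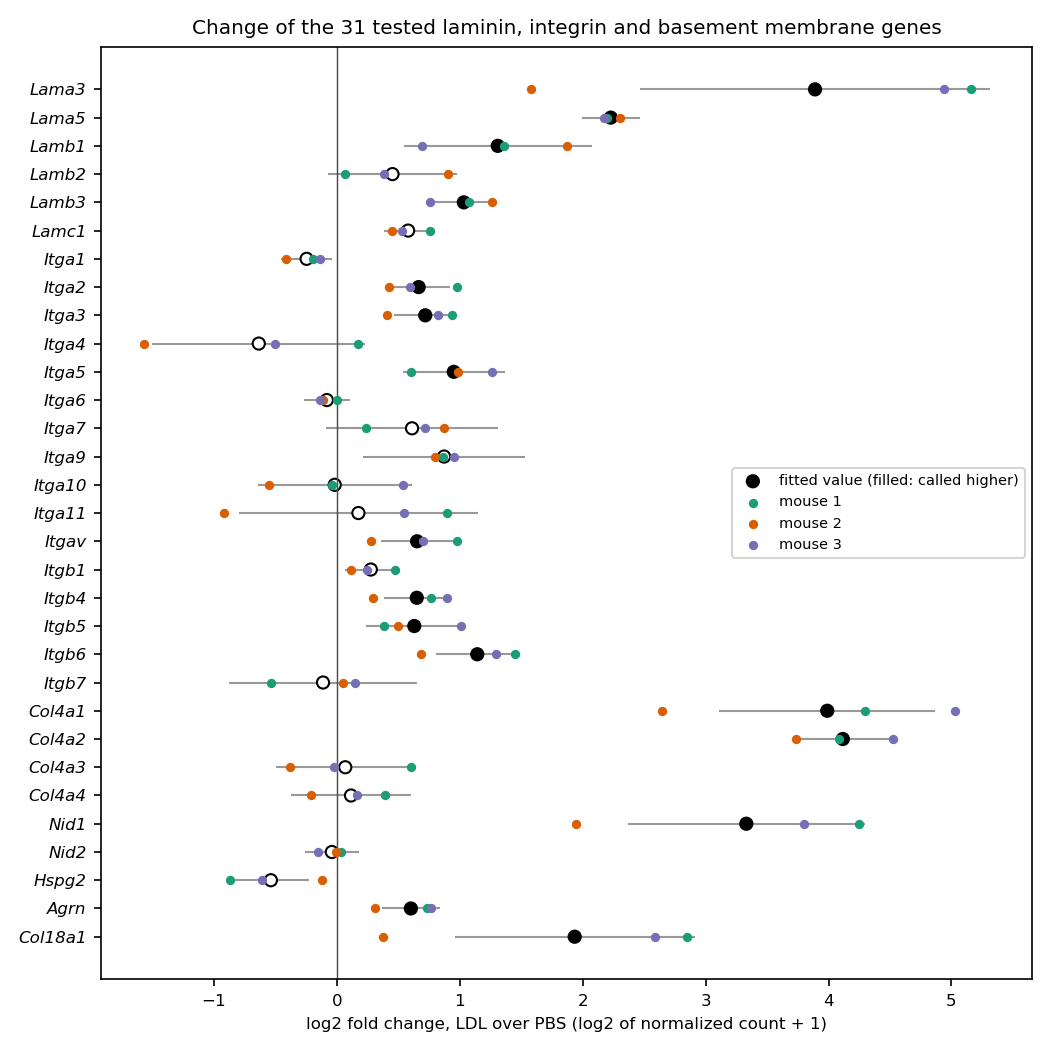
Change with LDL of the 31 tested genes, in the order laminins, integrins, collagen IV, nidogens and other members. The horizontal axis is the log2 fold change of LDL over PBS. Large circles are fitted values (filled where called higher) with 95% confidence intervals as grey lines, and small points are the 3 mice. All 16 filled circles lie right of 0, and Col4a1, Col4a2, Lama3 and Nid1 lie beyond 3.

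Sequence is shown for Nid1, whose rise was among the 4 largest of called genes averaging 100 normalized counts or more. The Nid1 stretch lies immediately upstream of the outermost exon annotated for this gene, at chr13:13611937-13612070 of GRCm39 on the plus strand. It spans 134 bases and ends 117 bases before the RefSeq start site. The letters are those of the RefSeq promoter table (build GRCm38.p6), matched exactly to GRCm39. Capitals mark GGAATG, the core motif of TEAD factors.
Nid1: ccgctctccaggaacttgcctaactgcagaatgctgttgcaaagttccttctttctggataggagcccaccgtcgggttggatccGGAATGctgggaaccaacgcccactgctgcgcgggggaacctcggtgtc
On either strand, GGAATG occurs in the promoter window (250 bases before to 50 after the start site) of 3 of the 14 called genes with an entry, namely Nid1, Lamb3 and Col18a1, and in 16.6% of the 27025 genes with one. TGANTCA, the AP-1 motif, was found for 1 of the 14 (Itga3) and for 8.97% of all. The DR1 motif, the direct repeat bound by PPARs, was found for 0 of the 14 and for 0.0481% of all. These matches describe letters in the window and do not show binding. No stretch is shown for Col4a1 or Col4a2, neighbours on chromosome 8 that are read from opposite strands and share 311 exonic bases at their starts.

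Collagen IV is a trimer, and the form found in most basement membranes consists of Col4a1 and Col4a2 chains. Col4a1 (chromosome 8, 11248423 to 11362826) had normalized counts of 93.9, 18.6 and 45.6 with PBS and of 1861, 122 and 1520.2 with LDL in mice 1, 2 and 3. Col4a2 (chromosome 8, 11362471 to 11499287) had 146, 12.4 and 70.0 with PBS and 2488, 178 and 1637 with LDL. The lowest LDL-treated value of either gene, that of mouse 2, lay just above the highest PBS-treated value, that of mouse 1, so the treatments were separated although the mice differed widely. Within a mouse, Col4a1 rose 19.8-fold, 6.54-fold and 33.3-fold, and Col4a2 rose 17.0-fold, 14.3-fold and 23.4-fold. Their log2 fold changes were 3.99 (SE 0.38, adjusted p = 0.000743 from limma) and 4.12 (SE 0.16, adjusted p = 1.38e-05 from limma). Without the block the adjusted p-values were 0.101 and 0.111. Per kilobase of exon, Col4a2 stood at 1.12 to 1.52 times Col4a1 in the LDL-treated libraries and at 0.693 to 1.62 times in the PBS-treated ones.
Col4a3 and Col4a4, neighbours on chromosome 1 whose products belong to a more restricted collagen IV network, were not called. Their log2 fold changes were 0.069 (95% CI -0.49 to 0.63) and 0.12 (95% CI -0.37 to 0.60). As a share of all 6 collagen IV chains per kilobase, Col4a3 and Col4a4 made up 12.4% and 17.3% in the PBS-treated library of mouse 1 and 1.45% and 1.73% in its LDL-treated library. The X-linked Col4a5 and Col4a6 were too low to test, with highest values of 12.2 for both, in the LDL-treated library of mouse 1.

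The nidogens, which bridge laminin and collagen IV, had unlike values, which were not tested against each other. Nid1 (chromosome 13, 13612071 to 13686860) had 19.4, 8.70 and 9.77 with PBS and 387, 36.4 and 149 with LDL. Every LDL-treated value exceeded every PBS-treated value, and the log2 fold change was 3.33 (SE 0.41, adjusted p = 0.00242 from limma, 0.0806 without the block). Nid2, named after its values were seen, had 484, 421 and 462 with PBS and 496, 420.1 and 415 with LDL. Its log2 fold change was -0.040 (95% CI -0.26 to 0.18). Nid2 remained the more abundant per kilobase in all 6 libraries, but Nid1 went from 3.36%, 1.76% and 1.80% of the 2 together with PBS to 40.3%, 6.98% and 23.7% with LDL. Nid2 shares 767 exonic bases with Rtraf on the opposite strand, and the strand setting of the counting is not stated.

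Of the laminin alpha chains, which determine receptor binding, Lama3 and Lama5 were expressed. Lama3 (chromosome 18), the alpha chain of the laminin that anchors hemidesmosomes, had 24.5, 13.7 and 15.5 with PBS and 907, 42.7 and 504 with LDL. All LDL-treated values were higher, but that of mouse 2 was far below the others, and the within-mouse rises were 37.0-fold, 3.13-fold and 32.6-fold. The log2 fold change was 3.89 (SE 0.61, adjusted p = 0.00598 from limma, 0.0996 without the block). Lama5 (chromosome 2, 179818166 to 179867712), the alpha chain of the main laminins of mature epithelial basement membranes, had 217, 75.8 and 182 with PBS and 1004, 379 and 824 with LDL. It rose 4.62-fold, 5.00-fold and 4.54-fold, nearly the same in the 3 mice, with a log2 fold change of 2.23 (SE 0.10, adjusted p = 2.84e-05 from limma, 0.0642 without the block). Per kilobase, Lama5 was 9.99, 6.24 and 13.2 times Lama3 with PBS and 1.24, 9.99 and 1.84 times with LDL, so its lead over Lama3 was smaller with LDL in mice 1 and 3 and not in mouse 2. Lama1, Lama2 and Lama4 were not tested, with no value above 13.4.
The beta and gamma chains complete these trimers. Lamb3, the beta partner of Lama3, had 956, 747 and 1145 with PBS and 2016, 1795 and 1939 with LDL. The treatments did not overlap, and its log2 fold change of 1.03 (SE 0.10) was called with the block (adjusted p = 0.000963 from limma) and without it (adjusted p = 0.0252 from limma). Lamb1, a beta partner of Lama5, was low, with 12.2, 4.97 and 18.7 with PBS and 32.9, 20.9 and 30.9 with LDL, and differed by 1.31 log2 (adjusted p = 0.0341 from limma). This call was lost with DESeq2, with quantile normalization, with no filter on the mean and without mouse 1 or mouse 3. Lamb1 shares 303 exonic bases with Dld, an abundant gene on the other strand.
Lamb2, the other beta partner of Lama5, had 50.02, 33.6 and 55.4 with PBS and 52.4, 63.7 and 72.7 with LDL, and was not called (log2 fold change 0.45, 95% CI -0.072 to 0.98). Lamc1, the gamma chain of the Lama5 laminins, had 1745, 1319.7 and 1575 with PBS and 2959, 1798 and 2278 with LDL. Its values were separated and its adjusted p-value was 0.00483 from limma, but the change of 1.495-fold fell just short of the fold threshold. Lamc1 was called with edgeR, DESeq2, upper-quartile scaling and quantile normalization, and without mouse 2. Lamc3 had at most 1.67.

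**Figure D2:**
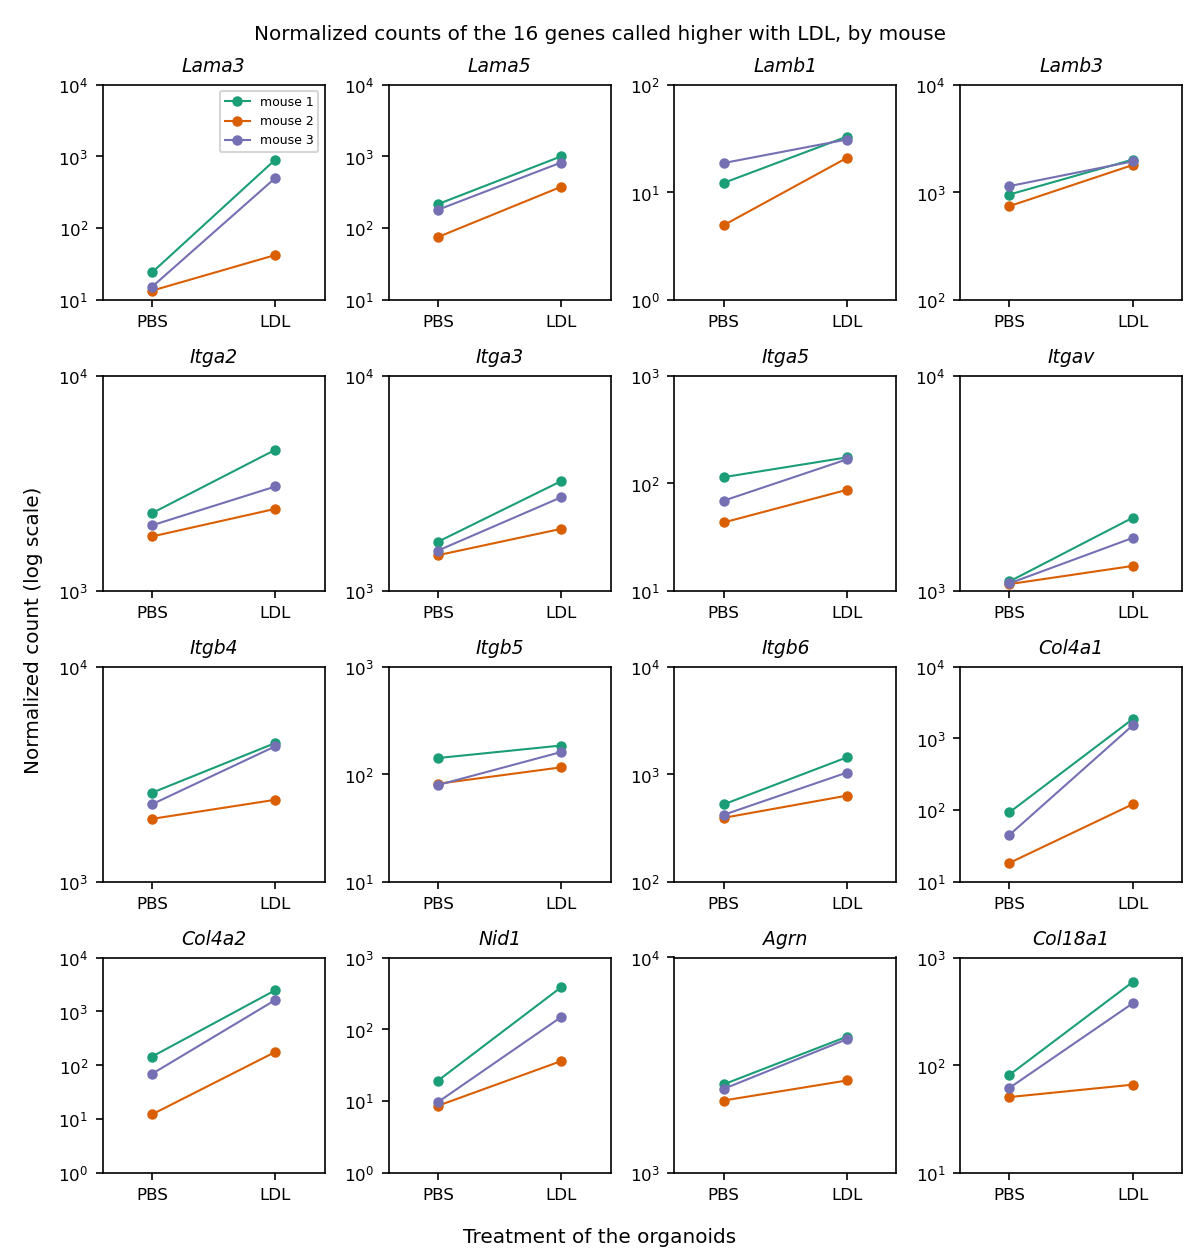
Normalized counts of the 16 called genes with PBS and LDL, on a logarithmic vertical axis whose range differs between panels. Each line joins the libraries of a mouse (green mouse 1, orange mouse 2, purple mouse 3). All lines rise, and for Lama3, Col4a1, Nid1 and Col18a1 that of mouse 2 ends well below the other two.

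Heparan sulfate proteoglycans and collagen XVIII sit in the same sheet, and their genes did not share a direction. Col18a1 had 81.7, 50.9 and 61.9 with PBS and 593, 66.4 and 376 with LDL, with rises of 7.26-fold, 1.30-fold and 6.08-fold. The LDL-treated value of mouse 2 lay below the PBS-treated value of mouse 1, so the groups overlapped. Its log2 fold change was 1.94 (SE 0.42, adjusted p = 0.0202 from limma, 0.189 without the block). Agrn had 2585, 2176 and 2462 with PBS and 4299, 2695 and 4185 with LDL, and was called with a difference of 0.60 log2 (limma adjusted p = 0.00803). Hspg2, which encodes perlecan, was lower with LDL in all 3 mice, with 1955, 1638 and 1495 with PBS and 1067, 1503 and 977 with LDL. Its adjusted p-value was 0.0326 from limma, but the log2 fold change of -0.54 (95% CI -0.85 to -0.23) was smaller than 1.5-fold, and the groups overlapped. Without mouse 2 it passed both thresholds. None of the 31 tested genes was called lower by limma, edgeR or DESeq2 with the block, where limma called 3.46% of all genes lower. At an unadjusted p-value under 0.05, 2 were lower in limma (Hspg2 and Itga1), 2 in edgeR and 1 in DESeq2.

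Among the integrin subunits tested, 7 of 16 were called, all higher, where 5.68% of all genes were called higher and 3.46% lower, with log2 fold changes from 0.63 to 1.14. Itga6, Itgb1 and Itgb4 belong to the laminin receptors of the basal surface, alpha 6 beta 4 of the hemidesmosome and alpha 6 beta 1. Itga6, named after its values were seen, was with Itgb1 the most abundant of all 41 genes per kilobase in PBS-treated organoids. It had 9491, 9377 and 9659.8 with PBS and 9527, 8658 and 8805 with LDL, and its log2 fold change was -0.081 (95% CI -0.27 to 0.11). Itgb4 had 2603, 1969.6 and 2302 with PBS and 4425, 2414 and 4274 with LDL, with a difference of 0.65 log2 (limma adjusted p = 0.00965). The LDL-treated value of mouse 2 lay within the PBS-treated range. Per kilobase, Itgb4 was 0.432, 0.331 and 0.376 times Itga6 with PBS and 0.732, 0.440 and 0.766 times with LDL. The difference between the subunits was not tested. Itgb4 shares 1074 exonic bases with Galk1 on the other strand, whose log2 fold change was -0.034.
Itgb1, the common partner of many alpha subunits, had 5302, 5291 and 5316 with PBS and 7366, 5718 and 6294 with LDL. Its values were separated, yet the difference of 0.28 log2 (95% CI 0.066 to 0.49) was not called (adjusted p = 0.0811 from limma). Itga3, another laminin receptor subunit, had 1698, 1471 and 1545 with PBS and 3242, 1949 and 2728 with LDL, a difference of 0.72 log2 (limma adjusted p = 0.00499). Itga2, which binds collagen as alpha 2 beta 1, had 2305, 1797 and 2024 with PBS and 4531, 2413 and 3062 with LDL, a difference of 0.67 log2 (limma adjusted p = 0.00670). The 2 rose in every mouse without overlap of the treatments. Itga1, another collagen receptor subunit, had 1052, 840.0 and 819.8 with PBS and 922, 631 and 747 with LDL, and its log2 fold change of -0.25 (95% CI -0.45 to -0.038) was not called. Itga2 and Itga1 share 444 and 2180 exonic bases with Mocs2 on the other strand.
Receptors that recognize the RGD sequence, found in fibronectin and in latent TGF-beta, included the largest integrin change. Itgb6, which is restricted to epithelia and pairs with Itgav, had 528, 396 and 423 with PBS and 1440.4, 637 and 1041 with LDL. The groups did not overlap, and the log2 fold change was 1.14 (SE 0.14, adjusted p = 0.00259 from limma, 0.0884 without the block). Itgav had 1112, 1081 and 1089 with PBS, a narrow range, and 2194, 1312 and 1769 with LDL, with a difference of 0.65 log2 (limma adjusted p = 0.0130). Itgb5, an alternative partner, had 142, 82.0 and 79.8 with PBS and 185, 116 and 161 with LDL, and was called at 0.63 (adjusted p = 0.0443 from limma) although the groups overlapped. Its call was lost with DESeq2 and without mouse 1 or mouse 3. Of Itgb3, Itgb5, Itgb6 and Itgb8 together per kilobase, a set without the more abundant Itgb1, Itgb6 made up 77.8% to 83.2% with PBS and 83.9% to 87.7% with LDL, and Itgb3 and Itgb8 were too low to test. Itga5, the fibronectin receptor subunit, had 114, 43.5 and 69.2 with PBS and 174, 87.3 and 167 with LDL. It rose in each mouse with a difference of 0.95 log2 (limma adjusted p = 0.0118), with overlap between the groups.
The remaining tested integrins were low. Itga9 had 12.2, 17.4 and 8.14 with PBS and 23.2, 30.9 and 16.7 with LDL and was higher in all mice, but was not called (log2 fold change 0.87, 95% CI 0.21 to 1.53, adjusted p = 0.0789 from limma). Itga7 had 14.3, 14.9 and 9.77 with PBS and 17.1, 28.2 and 16.7 with LDL, a difference of 0.61 log2 (95% CI -0.090 to 1.31). Itga4, the leukocyte-type subunit, had 20.4, 23.6 and 30.1 with PBS and 23.2, 7.28 and 20.9 with LDL (log2 fold change -0.63, 95% CI -1.50 to 0.23). Together with Col4a3, Col4a4, Itga6 and Nid2, the integrins Itga10, Itga11 and Itgb7 formed the 7 tested genes with the smallest changes, between -0.11 and 0.18, with adjusted p-values of 0.558 to 0.977 from limma. Itga8 held no read in any PBS-treated library and at most 3.64 normalized counts with LDL, and Itgb2 stayed at or below 6.21.

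**Figure D3:**
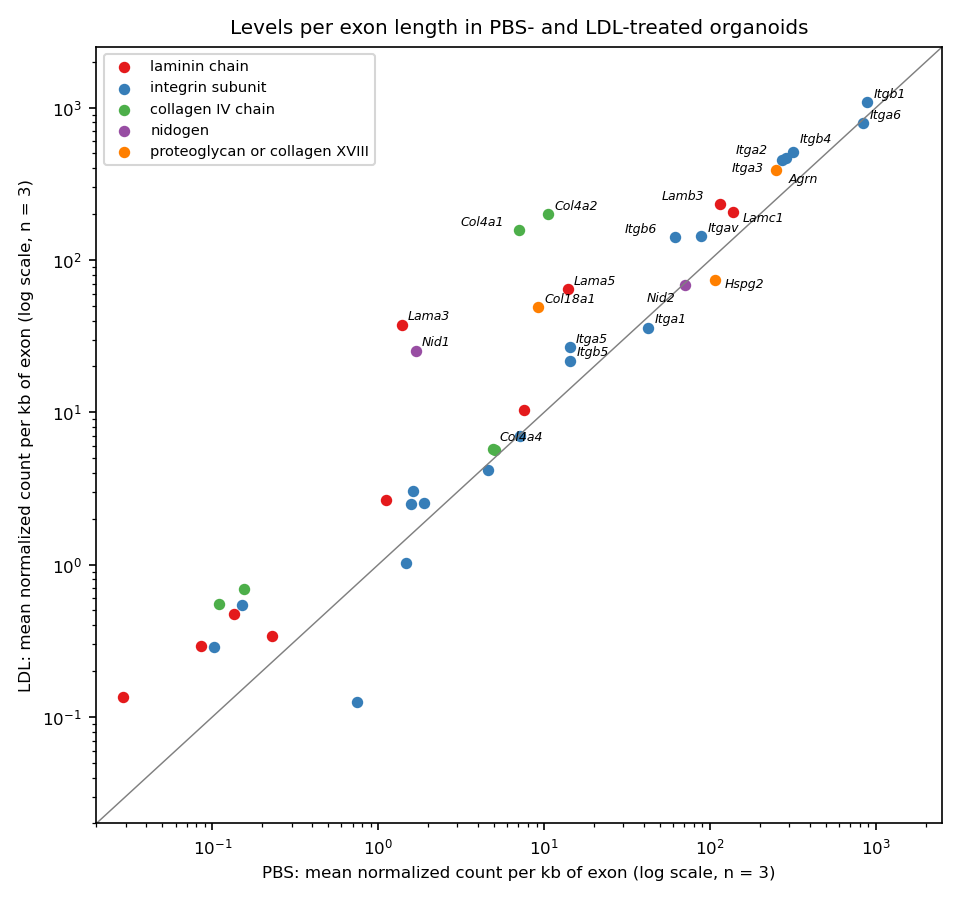
Mean level per kilobase of exon with PBS (horizontal) and with LDL (vertical), both on logarithmic axes, for the 40 genes with reads in both treatments. Each point is a gene, coloured by class, and the line marks equal levels. Itgb1 and Itga6 lie at the top near the line, and Col4a1, Col4a2, Lama3 and Nid1 lie far above it.

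Ordered by level per kilobase, the PBS-treated organoids were led by Itgb1 (888), Itga6 (835), Itgb4 (317), Itga2 (286), Itga3 (270) and Agrn (250.5), followed by Lamc1 (137) and Lamb3 (115). With LDL the order at the top was Itgb1 (1082), Itga6 (790), Itgb4 (513), Itga2 (468), Itga3 (453) and Agrn (388). The mean of Col4a2 was 10.6 with PBS and 199.8 with LDL, and that of Col4a1 was 7.06 and 156, with the LDL means resting on mice 1 and 3. Some neighbours in these orders, such as Itgb4, Itga2 and Itga3 with LDL, lay closer to each other than the spread between mice. Others, such as Itga6 and Itgb4, did not.

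Mice differed in how far these genes rose. The smallest rise was that of mouse 2 for 11 of the 16 called genes, a share of 68.8%, and for 65.9% of all 1048 genes called higher. Exceptions were Lama5, Lamb1, Lamb3, Itga5 and Itgb5. The median log2 ratio over the 31 tested genes was 0.76, 0.41 and 0.70 in mice 1, 2 and 3, and that over all genes tested was -0.039, 0.0014 and -0.016. The number of genes with reads was also largest in the LDL-treated libraries of mice 1 and 3 (35781 and 32751, against 29870 for mouse 2), and its part in these rises was not tested.

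Several of these genes are best known from cells other than epithelium, so markers of such cells were examined. The labelled identity held, since all 14 epithelial markers were expressed, with summed normalized counts of 113049 to 127802 with PBS and 125144 to 155498 with LDL. Of these Krt8, Krt18 and Alpi were called higher and Olfm4 lower. The 14 mesenchymal markers summed to 200.1 to 207 with PBS and to 209, 114 and 188 with LDL in mice 1, 2 and 3. Within a mouse the sum was level in mouse 1 and lower with LDL in mice 2 and 3. Only 4 of the 14 were tested, of which none was called higher, and 8 of the 14 stayed under 10 in every library. Within mice, 2 of the 14 were higher with LDL in all 3 (Col3a1 and Col6a3) and 3 were lower in all 3 (Vim, Pdgfrb and Col1a2). Vim, the most abundant, had 106, 104 and 140.0 with PBS and 72.0, 68.2 and 97.8 with LDL. Pdgfrb had 24.5, 29.8 and 17.9 with PBS and 9.76, 11.8 and 14.2 with LDL, and neither was called. Of the matrix genes at low levels, named like these after their values were seen, some were higher with LDL in mice 1 and 3. Col3a1 had 0, 0 and 0.814 with PBS and 8.54, 0.909 and 5.85 with LDL. Dcn was at 0 with PBS and had 4.88, 0 and 2.51 with LDL, and Col1a1 had 5.10, 2.49 and 4.07 with PBS and 9.76, 1.82 and 4.18 with LDL. Their part in the rise of collagen IV was not tested. Endothelial markers summed to 43.5 to 65.3 with PBS and 86.6, 36.4 and 81.9 with LDL, higher with LDL in mice 1 and 3, with 5 of 8 under 10 throughout, and leukocyte markers to 234 to 305 and 311, 235 and 299. Glial and neuronal markers summed to 80.8 to 87.9 with PBS and to 106, 75.5 and 92.8 with LDL, and S100b among them was called higher. In a bulk sample, fewer cells of a type cannot be told apart from less RNA per cell.

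**Figure D4:**
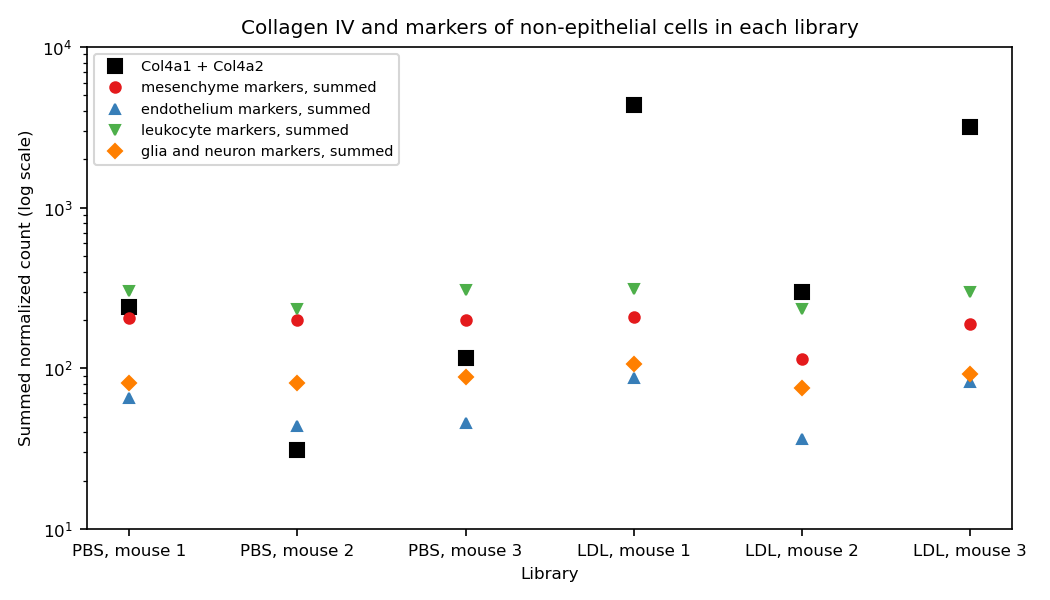
Sum of Col4a1 and Col4a2 (black squares) and summed marker genes of 4 non-epithelial cell types (coloured symbols) in each of the 6 libraries, as normalized counts on a logarithmic axis. The mesenchymal sum stays between 114 and 209 in all libraries. Collagen IV is highest in the LDL-treated libraries of mice 1 and 3, as are the endothelial and the glial and neuronal sums.

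Genes that work with these proteins were taken from 7 further lists, of which 70 of 100 genes were tested, 19 were called higher and 4 lower, beside 5.68% and 3.46% of all genes. Of the hemidesmosome genes, 1 of 4 tested was called higher, Plec, the linker of integrin beta 4 to keratin, with 6903, 5177 and 6608 with PBS and 11669, 6488 and 13129 with LDL (0.69 log2, limma adjusted p = 0.00994). Of 18 focal adhesion genes 3 were called higher and none lower, namely Tns4, Zyx and Tln2, with log2 fold changes of 1.28, 0.94 and 0.89. A further 4 had an adjusted p-value under 0.05 from limma at less than 1.5-fold. Of 11 receptors other than integrins, Cd44, the hyaluronan receptor, and Bcam, which binds laminin alpha 5, were called higher with log2 fold changes of 1.16 and 0.87.
Other basement membrane proteins split, with 2 of 9 called higher and 3 lower. Npnt, the ligand of integrin alpha 8 beta 1, rose from 97.0, 34.8 and 83.0 to 692, 127 and 425 (2.33 log2, limma adjusted p = 0.000406), and Tinagl1 had a log2 fold change of 1.32. Fras1, a protein of the epithelial basement membrane, fell from 654, 640.0 and 746 to 246, 386 and 389 (-1.02 log2, limma adjusted p = 0.00297), and Smoc2 and Papln had log2 fold changes of -0.79 and -0.77. Fras1 was the only gene of the 7 lists called without the block. Of 5 other integrin ligands, Ccn2, Ccn1 and Icam1 were called higher with log2 fold changes of 3.22, 1.46 and 1.30. Ccn2 passed the filter only through its LDL-treated values, and Fn1, encoding fibronectin and named after its values were seen, was not tested, with at most 17.1.
Collagen is modified and folded inside the cell and crosslinked outside it. Of 13 genes of these steps, 4 were called higher, namely the lysyl hydroxylase Plod2, the prolyl hydroxylase subunit P4ha2, the lysyl oxidase relative Loxl4 and the transglutaminase Tgm2, with log2 fold changes of 1.62, 1.41, 1.24 and 0.61. Plod2 had 8.17, 9.94 and 16.3 with PBS and 56.1, 33.6 and 24.2 with LDL. The collagen chaperone Serpinh1 and the collagen IV crosslinking peroxidase Pxdn, named after their values were seen, reached at most 2.44 and 6.10 in any library. Among proteases and inhibitors, 4 of 10 were called higher and 1 lower. Mmp15, a membrane-type matrix metalloproteinase, had 447, 293 and 441 with PBS and 2236, 739 and 2311 with LDL (2.01 log2, limma adjusted p = 0.000743). Adamts1 and Timp2 had log2 fold changes of 2.83 and 1.58, the former passing the filter only through its LDL-treated values. Timp3, a matrix-bound protease inhibitor, fell from 131, 145 and 122 to 63.4, 80.0 and 66.9, with a difference of -0.91 log2 (limma adjusted p = 0.00795).

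**Figure D5:**
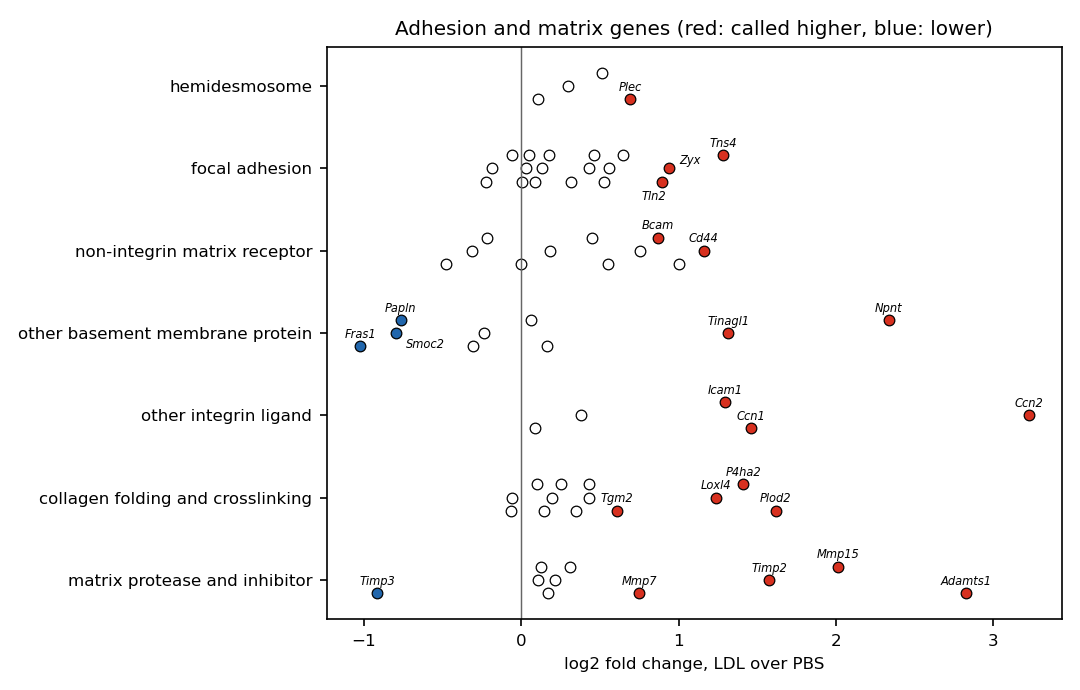
Log2 fold change of LDL over PBS (horizontal axis) for the tested genes of the 7 further lists (rows). Each circle is a gene, red where called higher, blue where called lower and white where not called. Of the 4 blue circles, 3 lie in the row of other basement membrane proteins and Timp3 in that of proteases and inhibitors.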

How the data were processed

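RNA-Seq of 6 organoid libraries was analyzed. The deposited signal values are normalized counts. Per the labels and the study's methods, the authors aligned reads to GRCm39 with STAR, counted them per Ensembl gene with featureCounts and named DESeq2 for the analysis, from a stranded library kit, and the strand setting of the counting is not given in the sources used here. Each value was a whole multiple (tolerance 0.01) of 1 number per library, so whole reads were recovered for 100% of values above 0. Symbols, positions and exon lengths came from GENCODE M39 (GRCm39), in which 54749 of 55416 identifiers were found.

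Log2 of the normalized count plus 1 was compared with limma 3.58.1 in R 4.3.3 (eBayes with a trend, two-sided, Benjamini-Hochberg adjustment), with the mouse as a block, since both libraries of a number come from 1 animal. Deviations from the treatment means correlated within mice with r = 0.48, 0.42 and 0.46 across genes. edgeR 4.0.16 and DESeq2 1.42.0 were run on recovered reads. The steps were also run on simulated data in which a change was the same in every mouse, so unequal changes between mice were not covered. The genes and lists were chosen with earlier results of these data known. Values by library are given for every called gene and for the 8 largest changes among the others. Of each list, up to 4 called genes with the largest changes are named, except that every called gene is named for other basement membrane proteins. Promoter letters were from RefSeq, and none are shown for Lama3, Col4a1 or Col4a2. Intervals are 95% intervals from limma. Standard errors, intervals and p-values from limma combine the spread of each gene between 3 mice with a trend over all genes tested. For genes whose rises differed widely between mice, such as Lama3 and Col18a1, the standard errors are smaller than the gene's own spread would give. At these depths 3 reads, the limit that a count of 0 allows, equal 2.44 to 3.73 normalized counts, which covers counting error only.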

Additional observations from a re-analysis of the deposited data

How the results depend on the processing

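The count of 16 genes called higher was 15 to 17 under both other pseudocounts, both other filters, both other scalings, edgeR and DESeq2, and 14 of the genes were called by limma, edgeR and DESeq2 alike. It was 1 with no replicate block and 9 at a change of more than 2-fold, and leaving out a mouse gave 4 to 17, with Col4a1, Col4a2, Lama5 and Lamb3 called each time. Each fit that leaves out a mouse rests on 2 pairs, and the low end is the fit without mouse 3. Over all genes, 1048 were called higher and 639 lower, against 162 and 73 with no replicate block, 265 and 77 without mouse 3, 758 and 327 without mouse 1, 1604 and 1348 without mouse 2, 674 and 207 at more than 2-fold and 1526 and 1375 at any fold. Under the block, leaving out a library is leaving out its mouse. The count called lower was 0, but 1 (Hspg2) at any fold change and 0 to 1 on leaving out a mouse. The median log2 fold change was 0.56 to 0.75 on leaving out a mouse. The 23 called genes of the 7 further lists were 1 without the block, 14 at more than 2-fold and 6 to 25 on leaving out a mouse. Signs turned only for genes near 0, none of them called. Itga10 had 0.0050 with DESeq2, 0.022 with edgeR and 0.00066 with upper-quartile scaling, and Itga11 had -0.056 and Col4a3 -0.019 with quantile normalization. Leaving out a mouse gave -0.30 to 0.25 for Itga10, -0.19 to 0.72 for Itga11, -0.24 to 0.099 for Itgb7, -0.20 to 0.29 for Col4a3, -0.021 to 0.28 for Col4a4 and -0.079 to 0.017 for Nid2. The pairing rests on the animal identifier in the labels. The 10 untested genes had at most 13.4 normalized counts.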
